A study of Bos taurus with 2 samples.

Results

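The 8 genes described here encode enzymes of glycolysis: ALDOA, TPI1, GAPDH, PGK1, PGAM1, ENO1, PKM and LDHA. They were taken by name, all 8 of the 27270 genes in the files, each with 1 entry. They were followed across cell classes of the bovine mammary gland, in 1 library from a lactating adult Holstein cow and 1 library from a newborn Holstein. Both are droplet single-cell RNA libraries (10x 3' kit, V3) of gland tissue digested with enzymes after fat removal, and the labels name no treatment, genotype or exact age. With 1 library per stage, stage, animal, handling and library cannot be told apart, no test between stages can be made, and every interval below covers counting error only.

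Glycolysis splits glucose into pyruvate in the cytosol and yields ATP without oxygen. Aldolase A (ALDOA) cuts a phosphorylated hexose into a pair of trioses, which triosephosphate isomerase (TPI1) interconverts. Glyceraldehyde-3-phosphate dehydrogenase (GAPDH) oxidises the product, phosphoglycerate kinase (PGK1) makes the first ATP, and phosphoglycerate mutase (PGAM1) and enolase (ENO1) prepare the phosphate for pyruvate kinase (PKM), which makes the second. Lactate dehydrogenase A (LDHA) favours the turn of pyruvate into lactate, while its partner LDHB is found more in tissues that burn lactate. Many of these genes are targets of the hypoxia factor HIF1A. In the lactating gland, glucose is also the substrate of lactose.

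The adult library held 15897 barcodes with a median of 2723 UMIs (unique molecules counted per cell barcode), and the newborn library 13772 barcodes with a median of 4581. The labels give 24472 cells for the study, against 29669 barcodes in the deposited matrices and 28401 once those with under 300 genes or over 20% mitochondrial UMIs were removed. Barcodes were assigned to 9 lineages by raw UMIs of marker genes, which placed 9948 adult barcodes (62.6%) and 11138 newborn barcodes (80.9%). Of these gates, 9 in the adult and 3 in the newborn held at least 50 barcodes, and a level is a gene's UMIs per 1000000 UMIs summed over a gate (CPM). No newborn barcode was gated as epithelial, and 10875 of the newborn gated barcodes were fibroblasts. The libraries shared 57 barcode sequences. Transcripts of other cell types were counted in gates of both libraries: adult T or NK lymphocytes carried the milk protein gene CSN2 at 5475 CPM, and newborn mast cells carried the fibroblast gene PTX3 at 6276 CPM.

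The 8 genes had a shared outline across the 12 gates. Summed over the 8, the level was highest in newborn mast cells at 9804 CPM (9225 to 10411, exact Poisson interval of 95%), followed by adult neutrophils at 6123 CPM (5947 to 6302). Newborn endothelial cells had 3494 CPM, adult mast cells 3303, adult macrophages or monocytes 3190, adult fibroblasts 2763, newborn fibroblasts 2686, adult T or NK lymphocytes 2644, adult endothelial cells 2371 and adult luminal epithelial cells not secreting milk 2065. Adult plasma cells, at 1454 CPM, and milk-secreting epithelial cells, at 295 CPM (288 to 303), were at the bottom. Newborn mast cells were highest for 7 of the 8 genes, and on this scale milk-secreting cells were lowest for all 8. With milk protein and mitochondrial UMIs left out of the total, milk-secreting cells were not below other luminal cells for ALDOA and PGAM1, as given further on.

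**Figure D1:**
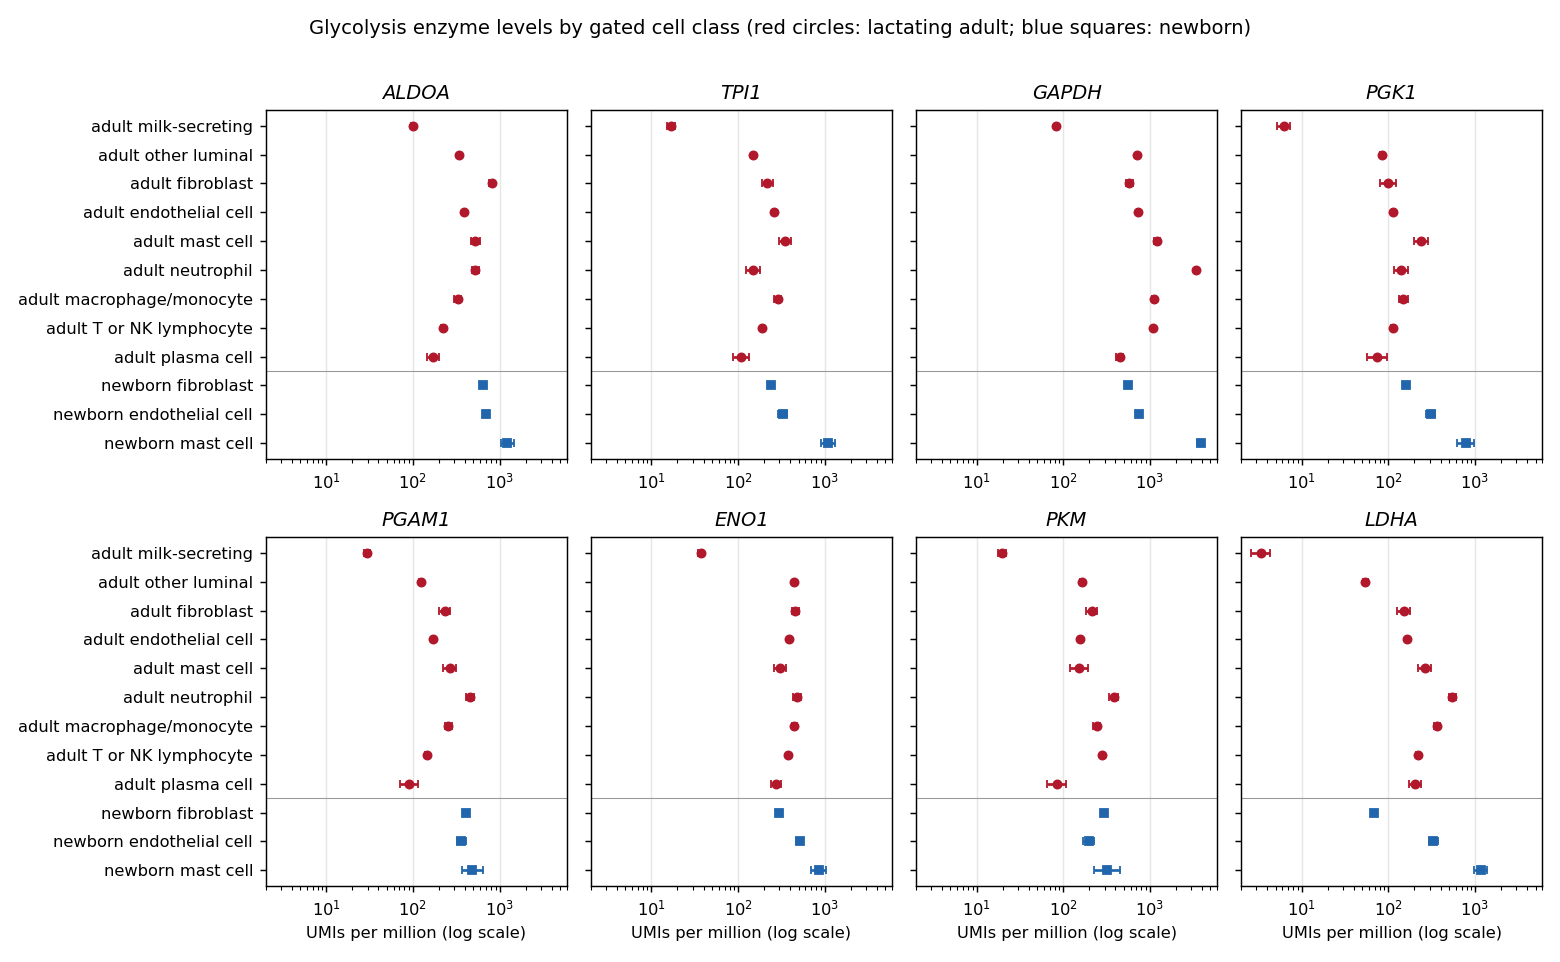
Level of each of the 8 genes (x axis, CPM on a log scale) in the 9 adult gates (red circles) and 3 newborn gates (blue squares) of at least 50 barcodes; bars are exact Poisson intervals of 95%. Newborn mast cells are farthest right for every gene but PKM, and on this scale, which counts milk protein UMIs in the total, milk-secreting cells are farthest left for all 8.

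ALDOA (ENSBTAG00000012927, its identifier in the files), the aldolase, stood at 1231 CPM in newborn mast cells (1032 to 1458). Adult fibroblasts had 809 CPM, newborn endothelial cells 704 and newborn fibroblasts 652, and in that order the intervals of neighbours overlapped. Adult neutrophils had 527 CPM, adult mast cells 525, adult endothelial cells 389, other luminal cells 344, macrophages or monocytes 328, T or NK lymphocytes 219.8, plasma cells 171 and milk-secreting cells 99.2. Among adult gates ALDOA was thus highest in fibroblasts.

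TPI1 (ENSBTAG00000019782), the isomerase, reached 1103 CPM in newborn mast cells (914 to 1318), and no other gate came near. Adult mast cells had 350.2 CPM, newborn endothelial cells 329, adult macrophages or monocytes 287 and adult endothelial cells 258, a run of overlapping neighbours. Newborn fibroblasts had 243 CPM, adult fibroblasts 218, T or NK lymphocytes 191, neutrophils 150.4, other luminal cells 149.7, plasma cells 109.6 and milk-secreting cells 16.9. Neutrophils, second for GAPDH, PGAM1 and LDHA, were among the lowest gates for TPI1.

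GAPDH (ENSBTAG00000014731) was highest in newborn mast cells at 3859 CPM (3499 to 4247) and adult neutrophils at 3439 CPM (3308 to 3575), whose intervals overlapped. Adult mast cells, macrophages or monocytes, and T or NK lymphocytes followed at 1198, 1113 and 1101 CPM, and the intervals of neighbours overlapped. Newborn endothelial cells had 745 CPM, adult endothelial cells 725, other luminal cells 703, adult fibroblasts 579, newborn fibroblasts 557, plasma cells 448 and milk-secreting cells 83.5. GAPDH, widely used as a constant reference gene, thus spanned 46.2-fold over the 12 gates and 8.62-fold with milk-secreting cells left out. How reads shared with GAPDH-like pseudogene copies were counted is not given in the sources used here.

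PGK1 (ENSBTAG00000000894), the first ATP-making step, had 781 CPM in newborn mast cells (624 to 966), 309 in newborn endothelial cells and 239.5 in adult mast cells. Newborn fibroblasts had 159.9 CPM, macrophages or monocytes 149, neutrophils 141, adult endothelial cells 114, T or NK lymphocytes 113, adult fibroblasts 99.4, other luminal cells 84.2 and plasma cells 74.6, and each of these overlapped the next. Milk-secreting cells had 6.18 CPM (5.13 to 7.37).

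PGAM1 (ENSBTAG00000012697), the mutase, was high in newborn mast cells at 487 CPM, adult neutrophils at 458, newborn fibroblasts at 410.4 and newborn endothelial cells at 363, with each overlapping the next. Adult mast cells had 268 CPM, macrophages or monocytes 257, adult fibroblasts 233, adult endothelial cells 172, T or NK lymphocytes 145, other luminal cells 123, plasma cells 90.3 and milk-secreting cells 29.5. All 3 newborn gates stood above every adult gate except neutrophils.

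ENO1 (ENSBTAG00000013411), enolase, was the flattest of the 8 outside milk-secreting cells, with a 3.11-fold span. It had 855 CPM in newborn mast cells (690 to 1047), 517 in newborn endothelial cells, 475 in neutrophils, 460.2 in adult fibroblasts, 444 in macrophages or monocytes and 443 in other luminal cells. Adult endothelial cells had 392 CPM, T or NK lymphocytes 375, adult mast cells 306, newborn fibroblasts 299.7, plasma cells 274 and milk-secreting cells 37.0.

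PKM (ENSBTAG00000001601), pyruvate kinase of tissues other than liver and red cells, was highest in adult neutrophils at 383 CPM (340.3 to 430.3), which overlapped newborn mast cells at 322 CPM (224 to 447). Newborn fibroblasts had 297 CPM, T or NK lymphocytes 282, macrophages or monocytes 245, adult fibroblasts 213, newborn endothelial cells 197, other luminal cells 164, adult endothelial cells 157, adult mast cells 153, plasma cells 84.3 and milk-secreting cells 19.7. Its splice forms PKM1 and PKM2 are counted together here.

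LDHA (ENSBTAG00000008683) had the widest span, from 1167 CPM in newborn mast cells (973 to 1388) down to 3.37 CPM in milk-secreting cells (2.61 to 4.27). Neutrophils had 548 CPM, macrophages or monocytes 368, newborn endothelial cells 330.0, adult mast cells 264, T or NK lymphocytes 217, plasma cells 202, adult endothelial cells 164, adult fibroblasts 152, newborn fibroblasts 67.5 and other luminal cells 54.2. The ratio of highest to lowest gate was 347, and 21.5 with milk-secreting cells left out, whereas LDHB spanned 2.74-fold over the 12 gates. These spans, and the order of gates, count milk protein UMIs in the total. On that scale LDHB was highest in adult endothelial cells at 303 CPM and lowest in newborn mast cells at 110.3 CPM (57.0 to 193). With milk protein and mitochondrial UMIs left out, LDHB was higher in milk-secreting than in other luminal cells, as given further on. Of adult neutrophils, the 57 deepest barcodes held 69.9% of the LDHA UMIs but 36.8% of all UMIs, so LDHA there rested on part of the gate. The same barcodes held 65.5% of the ENO1, 62.8% of the TPI1, 49.1% of the PGK1 and 48.6% of the PKM UMIs, but 33.9% of those of GAPDH.

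The balance of the lactate dehydrogenases differed between cell classes, and also between the libraries within a class. LDHA made up 2.56% of LDHA plus LDHB UMIs in milk-secreting cells (1.99 to 3.24, exact binomial interval), 19.5% in other luminal cells, 25.6% in newborn fibroblasts, 35.1% in adult endothelial cells and 45.9% in adult fibroblasts. The share was 58.8% in T or NK lymphocytes, 59.7% in newborn endothelial cells, 61.3% in plasma cells, 63.6% in adult mast cells, 73.9% in macrophages or monocytes, 76.3% in neutrophils and 91.4% in newborn mast cells (85.4 to 95.5). The share was thus lowest in the epithelial gates, and each leukocyte lineage gate named here lay above 50%, as did newborn endothelial cells. Within the T or NK gate, dividing lymphocytes of the adult lay below it, at 45.6% (41.8 to 49.3). The LDHA share does not depend on the UMI total by which a level is scaled. The gate of other luminal cells also held 121 of the 123 adult epithelial barcodes with at least 2 basal markers, in which the share was 18.5% and the 8 genes summed to 2313 CPM. Adult endothelium was divided within itself, with 31.5% in lymphatic cells (30.4 to 32.6) and 70.5% in blood vascular cells (66.9 to 73.9).

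**Figure D2:**
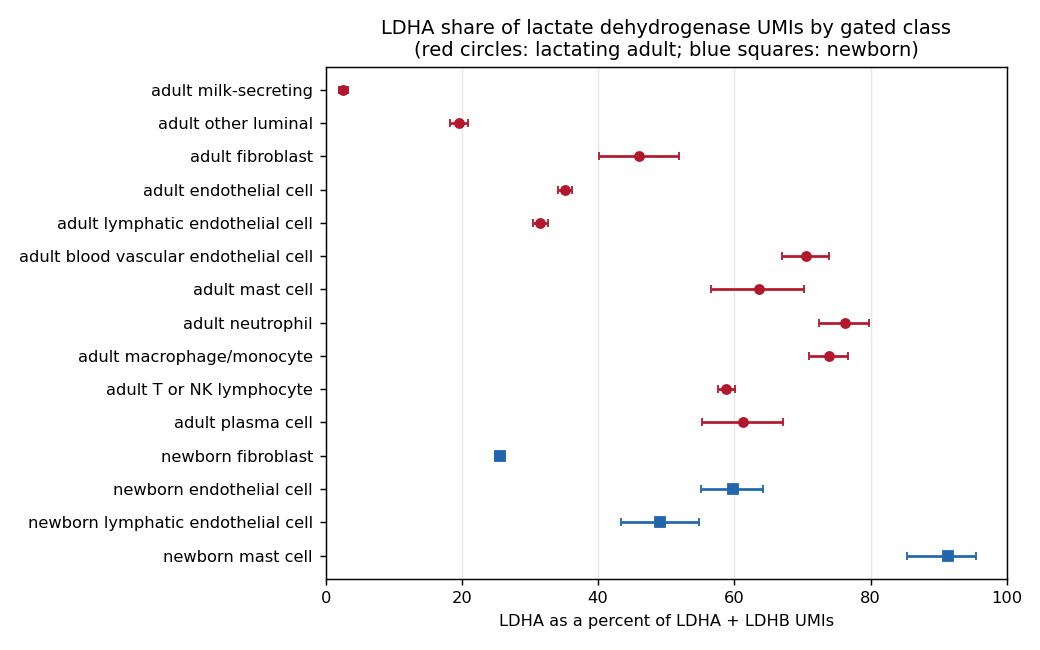
LDHA as a percent of LDHA plus LDHB UMIs (x axis) per gate, adult as red circles and newborn as blue squares, with exact binomial intervals of 95%; adult and newborn lymphatic cells and adult blood vascular cells are also part of the endothelial gates. The share runs from 2.56% in milk-secreting cells to 91.4% in newborn mast cells.

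Mast cells showed the widest stage contrast. All 8 genes were lower in adult than in newborn mast cells, with every ratio's interval (exact conditional binomial, 95%) below 1. Of the 8, 7 were at least 2-fold lower, against 11.6% of the 2945 genes measured in both gates (at least 20 UMIs in all and a mean of 20 CPM), and 22.8% were at least 2-fold higher. The median log2 ratio of adult over newborn was -1.57 for the 8 and 0.05 for all measured genes.

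LDHA had 264 CPM in adult mast cells (131 UMIs) and 1167 CPM in newborn mast cells (127 UMIs), a ratio of 0.226 (0.176 to 0.291). PGK1 had 239.5 against 781 CPM, a ratio of 0.307 (0.230 to 0.410). GAPDH had 1198 against 3859 CPM, a ratio of 0.310 (0.273 to 0.352). TPI1, at 350.2 CPM in adult and 1103 CPM in newborn mast cells, had nearly the same ratio as GAPDH and PGK1, 0.318 (0.2503 to 0.4042). ENO1 stood at 306 against 855 CPM (ratio 0.358) and ALDOA at 525 against 1231 CPM (ratio 0.427). PKM, with 153 against 322 CPM (ratio 0.476, 0.315 to 0.732), and PGAM1, with 268 against 487 CPM (ratio 0.550, 0.397 to 0.771), differed least. LDHB went the other way in value, 151 against 110.3 CPM, but rested on 12 newborn UMIs and its ratio of 1.37 (0.739 to 2.77) did not exclude 1. After thinning to 1000 UMIs per barcode, LDHA was detected in 18.3% of 191 adult and 49.1% of 55 newborn mast cells, and without thinning in 30.2% and 61.0%.

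The mast cell gates held 192 adult barcodes (median 2266 UMIs, 8.74% mitochondrial) and 59 newborn barcodes (median 1600 UMIs, 6.66% mitochondrial). Mast cell markers summed to 4358 CPM in the adult gate and 5247 CPM in the newborn gate, with all 6 measured markers at 20 CPM or more in each. The fibroblast marker list summed to 50.3 CPM in the adult gate, and to 2196 CPM in the newborn gate with 9 of 10 markers at 20 CPM or more; their part in the result was not tested. The T or NK, neutrophil and B cell marker lists were at 0 UMIs in newborn mast cells. The plasma cell list had 13 UMIs there (119 CPM), the endothelial list 5, the macrophage or monocyte list 2 and the epithelial list 1. In newborn fibroblasts the fibroblast marker list summed to 30395 CPM. The 8 genes summed to 2686 CPM in newborn fibroblasts and 9804 CPM in newborn mast cells, and the part of fibroblast RNA in the latter was not tested. With a wider gate, at least 3 UMIs of CPA3 (mast cell carboxypeptidase), 312 adult and 414 newborn barcodes gave a median of -1.51. The log2 ratios of the 8 genes ran from -1.84 for PGK1 to -1.02 for PGAM1 and -0.91 for PKM. The share of all genes past 2-fold was not computed for this gate. Its newborn barcodes held PTX3 at 5478 CPM and COL1A1 at 465 CPM, against 1.28 and 11.5 CPM in the adult, and their part was not tested.

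Other genes of glucose use were examined from 8 lists of 75 genes, 74 of them in the files. In mast cells 25 could be measured, of which 3 (against 22.8% of all measured genes) were at least 2-fold higher and 10 (against 11.6%) at least 2-fold lower in the adult. Of 14 further hypoxia targets, 9 were measured, of which 6 were at least 2-fold lower, beside the same 11.6% of all genes. The largest ratios downward were those of SLC2A1, the glucose transporter GLUT1, at 22.1 CPM in adult and 156 CPM in newborn mast cells (ratio 0.142, 0.0600 to 0.321), and KDM3A, a histone demethylase, at 20.1 against 129 CPM (ratio 0.156). Upward were TALDO1, transaldolase of the pentose phosphate pathway, at 121 against 18.4 CPM (ratio 6.57, 1.74 to 55.5, on 2 newborn UMIs), and PDHB, a subunit of pyruvate dehydrogenase, at 80.5 against 27.6 CPM (ratio 2.92, 0.930 to 14.8). The last interval includes 1.

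Endothelial cells showed a smaller contrast of the same direction. Of the 8 genes, 7 had intervals below 1 and 3 were at least 2-fold lower in adult than in newborn endothelial cells, against 7.91% of 5234 measured genes, with 8.87% at least 2-fold higher. The median log2 ratio was -0.63 for the 8 and 0.11 for all genes. PGK1 had 114 CPM in adult and 309 CPM in newborn endothelial cells, a ratio of 0.369 (0.324 to 0.421). PGAM1 had 172 against 363 CPM, a ratio of 0.475 (0.422 to 0.536), and LDHA 164 against 330.0 CPM, a ratio of 0.496 (0.439 to 0.563).

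ALDOA, ENO1, TPI1 and PKM were lower by less, at ratios of 0.552, 0.758, 0.785 and 0.798. GAPDH did not differ beyond counting error, at 725 CPM in adult and 745 CPM in newborn endothelial cells (ratio 0.972, 0.898 to 1.05). LDHB was higher in the adult, 303 against 222 CPM (ratio 1.36, 1.18 to 1.58). LDHA therefore made up 35.1% of lactate dehydrogenase UMIs in adult and 59.7% in newborn endothelial cells.

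The adult gate held 2710 barcodes, 2483 of them lymphatic and 125 blood vascular, and the newborn gate 107, with 77 and 23. Among lymphatic cells alone, the median was -0.50, and 2 of 8 (PGK1 at 0.473 and PGAM1 at 0.497) were at least 2-fold lower, against 7.54% of 5210 genes, with 10.1% at least 2-fold higher. LDHA was 144 against 231 CPM there (ratio 0.622, 0.527 to 0.739), and GAPDH turned to 729 against 637 CPM (ratio 1.14, 1.04 to 1.26). Fibroblast markers summed to 104 CPM in the adult gate and to 2470 CPM in the newborn gate, and their part in the result was not tested. Among the 35 other genes of glucose use measured, 2 were at least 2-fold higher and 9 at least 2-fold lower in the adult, against 8.87% and 7.91% of all genes. SLC16A1, the lactate transporter MCT1, had 6.95 against 50.3 CPM (ratio 0.138) and VEGFA, the vascular growth factor, 20.4 against 71.4 CPM (ratio 0.285), while P4HA2, a collagen prolyl hydroxylase, had 182 against 56.2 CPM (ratio 3.23) and PDHB 47.4 against 23.4 CPM (ratio 2.03).

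Fibroblasts showed no common direction. Of the 8 genes, 1 was at least 2-fold higher in adult fibroblasts and 0 were 2-fold lower, against 27.1% and 8.31% of 5081 measured genes, and the median log2 ratio was -0.05. The median over all genes was 0.52, so relative to it the median of the 8 genes lay at -0.57. ALDOA had 809 CPM in adult and 652 CPM in newborn fibroblasts (ratio 1.24, 1.15 to 1.34), and ENO1 had 460.2 against 299.7 CPM (ratio 1.54, 1.39 to 1.69). PGK1 was lower in the adult, at 99.4 against 159.9 CPM (ratio 0.622, 0.499 to 0.766), as were PGAM1, at 233 against 410.4 CPM (ratio 0.569, 0.494 to 0.652), and PKM, at 213 against 297 CPM (ratio 0.717, 0.619 to 0.827). GAPDH, at 579 against 557 CPM, and TPI1, at 218 against 243 CPM, had intervals that included 1. Relative to the all-gene shift, ENO1 (0.10) and LDHA (0.65) lay above 0 on the log2 scale, and ALDOA turned to -0.21.

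LDHA was the gene past 2-fold, at 152 CPM in adult and 67.5 CPM in newborn fibroblasts (ratio 2.25, 1.88 to 2.67). Its 136 adult UMIs came from 56 of 234 barcodes, 34 of them from 1 barcode, and the 24 deepest barcodes held 61.0% of them but 29.3% of all UMIs. Without the 10% of barcodes with the most UMIs its log2 ratio fell to 0.56, against 1.17 with them. After thinning to 1000 UMIs, LDHA was detected in 8.29% of 205 adult and 4.84% of 10249 newborn fibroblasts, with exact binomial intervals of 4.90 to 12.9 and 4.43 to 5.27; unthinned shares were 23.9% and 17.1% at median depths of 2624 and 4820 UMIs. LDHB was 179 against 196 CPM (ratio 0.910, 0.773 to 1.06), so the LDHA share was 45.9% in adult and 25.6% in newborn fibroblasts.

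The 180 adult and 4663 newborn fibroblasts that held the adventitial markers PI16 and CLEC3B gave the same counts, with 1 of 8 at least 2-fold higher (26.5% of 4990 genes) and 0 lower (8.20%), and LDHA at 169 against 76.2 CPM. Within the newborn library, PPARG fibroblasts had the lowest values for all 8 genes among the 3 fibroblast subsets. Their summed level was 2405 CPM, with 2882 CPM in PI16 CLEC3B and 2887 CPM in POSTN fibroblasts. Of the 33 other genes of glucose use measured in fibroblasts, 7 were at least 2-fold higher and 6 at least 2-fold lower in the adult, against 27.1% and 8.31% of all genes. The pentose phosphate pathway, which makes NADPH and ribose from glucose, had 5 of 7 genes at least 2-fold higher, beside an all-gene median of 0.52 on the log2 scale, led by PGD at 124 against 32.7 CPM (ratio 3.79, 3.101 to 4.593). SLC2A1 had 5.59 against 59.0 CPM (ratio 0.0947) and PDK4, a kinase that blocks pyruvate dehydrogenase, 74.8 against 711 CPM (ratio 0.105).

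**Figure D3:**
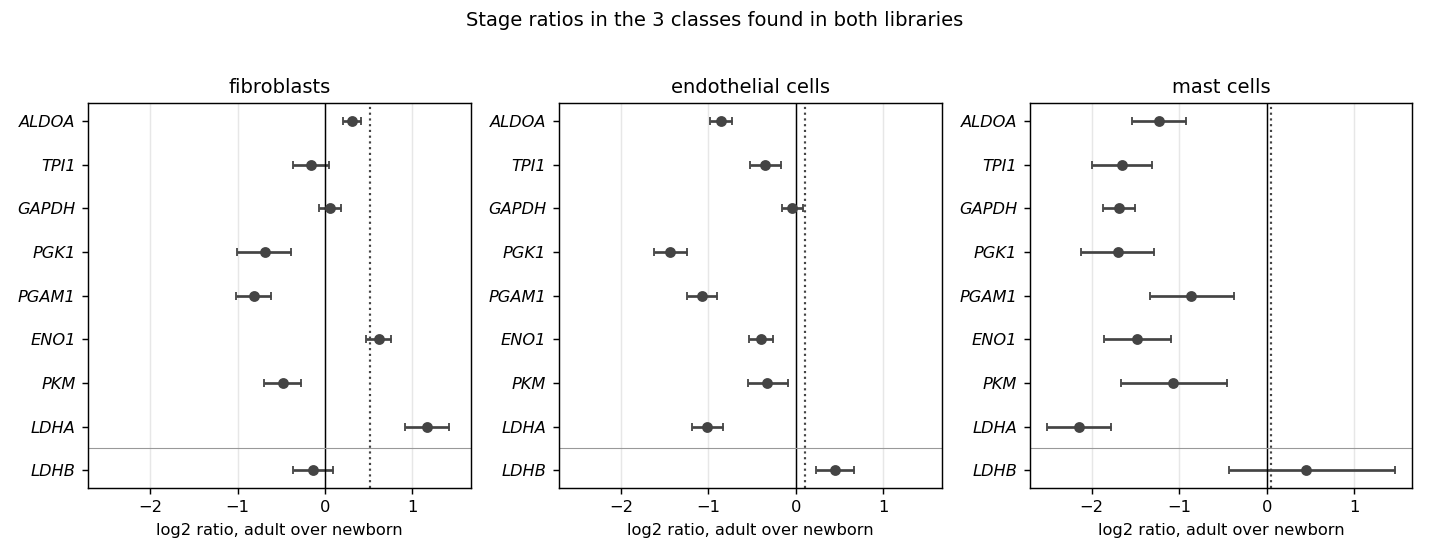
Log2 ratio of adult over newborn (x axis) for the 8 genes and LDHB in fibroblasts, endothelial cells and mast cells, with exact conditional binomial intervals of 95%; the dotted line is the median of all measured genes. All 8 lie left of 0 in mast cells, whereas LDHA lies at 1.17 in fibroblasts.

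Milk-secreting epithelial cells, gated only in the adult library, were set against the other luminal cells of that library. Scaled to all UMIs, the 8 genes were all at least 2-fold lower, but so were 91.1% of 3450 genes, with 1.68% at least 2-fold higher, while milk protein genes took a median of 76.2% of the UMIs of a milk-secreting cell and 0.913% in other luminal cells. The median log2 ratio was -3.11 for the 8 genes and -2.20 for all genes. With milk protein and mitochondrial UMIs left out of the total, the all-gene median was -0.01 and the 8 genes' median -1.01, with 4 of 8 at least 2-fold lower against 14.5% of 4904 genes, and 13.3% at least 2-fold higher.

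On that second scale LDHA had 15.4 CPM in milk-secreting cells and 57.7 CPM in other luminal cells (ratio 0.267, 0.204 to 0.343). PGK1 had 28.2 against 89.6 CPM (ratio 0.315, 0.259 to 0.380), ENO1 169 against 471 CPM (ratio 0.358, 0.331 to 0.387) and TPI1 77.1 against 159 CPM (ratio 0.484, 0.430 to 0.544). GAPDH and PKM were lower by slightly less, at ratios of 0.510 and 0.517. PGAM1 did not differ beyond counting error, at 135 against 131 CPM (ratio 1.03, 0.933 to 1.13). ALDOA was higher, at 453 against 365 CPM (ratio 1.24, 1.18 to 1.31), whereas scaled to all UMIs it was lower, at 99.2 against 344 CPM (ratio 0.289). LDHB was 586 against 237 CPM (ratio 2.47, 2.34 to 2.60).

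The LDHA level in milk-secreting cells rested on 67 UMIs in 42 of 403 barcodes with a median of 37645 UMIs, and 7 of them came from 1 barcode. Thinned to 1000 UMIs, LDHA was detected in 0.251% of 399 milk-secreting cells (1 barcode) and 5.04% of 754 other luminal cells (10.4% and 42.4% unthinned). The thinning drew from all UMIs, of which milk protein took most in milk-secreting cells, so these shares belong to the first scale. Of the 38 other genes measured on the second scale, 16 were at least 2-fold higher and 3 at least 2-fold lower in milk-secreting cells, against 13.3% and 14.5% of all genes. FBP2, a fructose bisphosphatase that runs against glycolysis, had 54.6 against 1.11 CPM (ratio 49.2, 28.7 to 91.4). HK1, the common hexokinase, was lower, at 9.64 against 55.3 CPM (ratio 0.174, 0.125 to 0.238). Of 6 listed genes of gluconeogenesis, 3 were measured, FBP2 among them, and these 3 were at least 2-fold higher. FBP2 reached a mean of 20 CPM only through its level in milk-secreting cells, so that rule fixed its direction in this count.

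**Figure D4:**
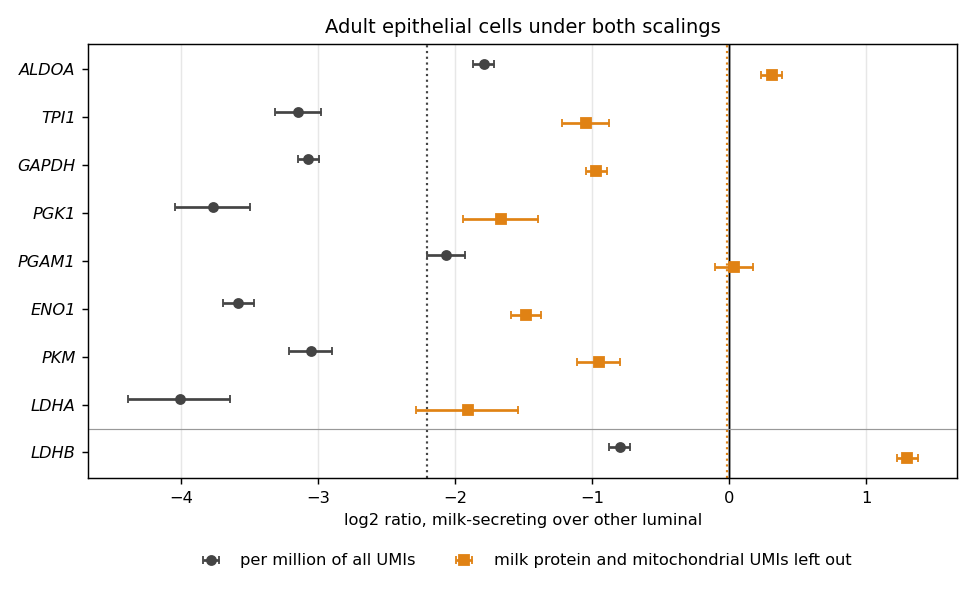
Log2 ratio of milk-secreting over other luminal cells of the adult (x axis) for the 8 genes and LDHB, scaled to all UMIs (grey circles) and with milk protein and mitochondrial UMIs left out (orange squares), with exact conditional binomial intervals of 95%; dotted lines are the medians of all genes on each scale. ALDOA, LDHB and, by a log2 ratio of 0.038, PGAM1 change side between the scales, and LDHA is lowest on both.

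Dividing T or NK lymphocytes of the adult, 102 barcodes with transcripts of at least 2 cell division genes, were compared with 4188 non-dividing ones. All 8 genes had intervals above 1, with a median log2 ratio of 0.65 against 0.31 for all genes, and 3 of 8 were at least 2-fold higher against 17.0% of 4231 genes, with 3.52% at least 2-fold lower. ENO1 had 806 CPM in dividing and 336 CPM in non-dividing lymphocytes (ratio 2.40, 2.23 to 2.58), TPI1 409 against 174 CPM (ratio 2.36, 2.12 to 2.61) and PGK1 218 against 102 CPM (ratio 2.14, 1.86 to 2.46). GAPDH stood at 1656 against 1045 CPM (ratio 1.58), ALDOA at a ratio of 1.54, LDHA at 1.45, PGAM1 at 1.34 and PKM at 1.33. LDHB, at 361 against 133 CPM (ratio 2.72, 2.43 to 3.04), was further apart than LDHA, and the LDHA share was 45.6% in dividing and 61.1% in non-dividing lymphocytes. Dividing barcodes had a median of 9344 UMIs, against 2888 in the others. When each barcode counted equally, and likewise when levels were scaled by the median of gene ratios, 0 of 8 passed 2-fold and the medians were 0.43 and 0.34. Of 22 other genes measured, 7 were at least 2-fold higher and 0 lower. TKT, transketolase, was at 106 against 33.5 CPM (ratio 3.16) and PFKP, a phosphofructokinase, at 126 against 41.6 CPM (ratio 3.04). The lowest ratios were those of EPAS1, a hypoxia factor (0.500), and MYC, a transcription factor of growth (0.524).

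CD8 T cells with granule genes, 1210 barcodes, differed little from 579 CD4 T cells. None of the 8 passed 2-fold, as did 2.43% upward and 2.38% downward of 3997 genes, but 5 of 8 had intervals below 1, with median log2 ratios of -0.29 for the 8 genes and -0.05 for all genes. The 5 were PGK1 at 111 CPM in CD8 cells and 150.4 CPM in CD4 cells (ratio 0.738, 0.642 to 0.849), ENO1 at a ratio of 0.796, LDHA at 0.801, GAPDH at 0.805 and PKM at 0.826. Of 23 other genes measured, 0 passed 2-fold, the lowest ratios being those of HIF1A (0.535) and DDIT4 (0.593) and the highest those of RPIA (1.97) and MYC (1.26).

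Adult lymphatic endothelial cells differed from adult blood vascular endothelial cells in LDHA, at 144 against 427 CPM (ratio 0.337, 0.305 to 0.372), in PKM, at 144 against 319 CPM (ratio 0.452, 0.404 to 0.507), and in PGK1, at 106 against 214 CPM (ratio 0.494, 0.431 to 0.568). The median log2 ratio was -0.18 for the 8 genes and 0.37 for all genes. The 3 named were those of the 8 at least 2-fold lower, against 7.59% of 5030 genes, with 17.6% at least 2-fold higher. GAPDH, at 729 against 658 CPM, was slightly higher (ratio 1.11, 1.03 to 1.195), and the other 4 genes lay within ratios of 0.872 and 1.11. LDHB was higher, at 313 against 179 CPM (ratio 1.75, 1.52 to 2.02). Among 30 other genes, HIF1A had 55.5 against 227 CPM (ratio 0.245) and NDRG1, a hypoxia target, 127 against 515 CPM (ratio 0.246). ADM, adrenomedullin, had 134 against 21.2 CPM (ratio 6.32) and P4HA2 193 against 44.3 CPM (ratio 4.36). NDRG1, ADM and P4HA2 are all from the list of 14 further hypoxia targets. Of that list 9 were measured, with 3 at least 2-fold higher (17.6% of all genes) and 1 at least 2-fold lower (7.59%). In the newborn, LDHA stood at 231 CPM in 77 lymphatic and 683 CPM in 23 blood vascular barcodes, and PGK1 at 224 against 587 CPM. GAPDH went the other way than in the adult, at 637 in newborn lymphatic against 1153 CPM in newborn blood vascular cells.

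Adult neutrophils, the class known for living on glycolysis, were set against adult macrophages or monocytes. The median log2 ratio was 0.61 for the 8 genes and -0.53 for all genes. GAPDH alone passed 2-fold upward, at 3439 against 1113 CPM (ratio 3.09, 2.92 to 3.28), while 15.4% of 4260 genes did so and 30.6% were at least 2-fold lower. Relative to the all-gene median, the median log2 ratio of the 8 genes was 1.14. The share of all genes past 2-fold on that relative scale was not computed. PGAM1 (ratio 1.78), ALDOA (1.61), PKM (1.56) and LDHA (1.49) were higher by less in summed UMIs. PGK1 and ENO1 had intervals that included 1, and TPI1 was lower, at 150.4 against 287 CPM (ratio 0.524, 0.424 to 0.643). The 57 deepest neutrophil barcodes held 69.9% of the LDHA and 65.5% of the ENO1 UMIs, but 36.8% of all UMIs. In macrophages or monocytes the 28 deepest held 28.8% and 28.3%, and 23.4% of all UMIs. These ratios may therefore not hold for most neutrophil barcodes, and ratios without the deepest barcodes were not tested. The 7 steps from ALDOA to PKM thus did not move as a block between these classes. Neutrophil barcodes had a median of 912 UMIs and macrophage or monocyte barcodes 6510, and milk protein UMIs made up a median of 7.34% and 1.55%; their part in the result was not tested. Of 36 other genes, SLC2A3, the glucose transporter GLUT3, had 2621 against 358 CPM (ratio 7.32, 6.70 to 8.01) and DDIT4, a hypoxia and stress target, 1328 against 247 CPM (ratio 5.37). SLC16A1 had 0 UMIs in neutrophils, where 3 UMIs would make 3.99 CPM, against 45.7 CPM (85 UMIs), and the interval of its ratio reached up to 0.110. ENO3, the muscle enolase, had 5.32 against 65.0 CPM (ratio 0.0819).

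**Figure D5:**
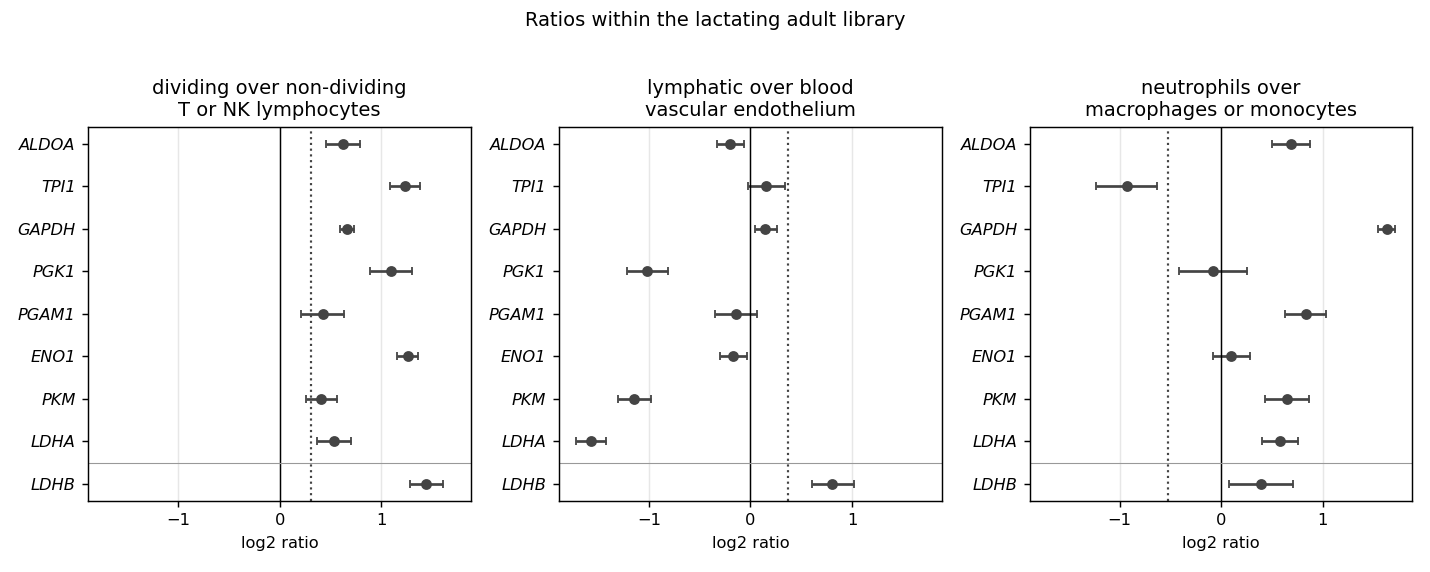
Log2 ratios (x axis) of the 8 genes and LDHB in 3 comparisons within the lactating adult library, with exact conditional binomial intervals of 95%; the dotted line is the median of all measured genes. LDHA, PKM and PGK1 lie more than 1 log2 unit left of 0 in lymphatic against blood vascular endothelium, and GAPDH lies at 1.63 in neutrophils against macrophages or monocytes.

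Across the 12 gates the levels of the 8 genes ran together to different degrees. Pearson's r of log2(CPM + 1) was 0.97 for TPI1 with PGK1 and 0.66 for ALDOA with LDHA, and LDHA with LDHB gave -0.09. With milk-secreting cells left out, 11 gates gave 0.93, 0.34 and -0.58. Gates of one library share its depth and free RNA, so these are descriptions. Among 5001 genes that reached 50 CPM in at least 1 gate, the profiles most like the mean profile of the 8 were those of SAFB (r 0.97), RBM22, SAFB2, BAZ1A and CHD1 (0.95), and without milk-secreting cells those of DENND5A (0.96), SAFB, PIAS1, BAZ1A and PLA2G7 (0.88).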

How the data were processed

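Both matrices hold raw UMI counts, as deposited by the authors from Cell Ranger 3.1.0, per the file headers and the submitters' processing notes. No source used here names the genome build or annotation, no coordinates are printed, and reads shared between near-identical genes may have been lost or split. Gene symbols are those the files pair with their identifiers.

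Barcodes with at least 300 genes and at most 20% mitochondrial UMIs were kept. A barcode held a lineage with at least 3 of its markers detected and at least 0.1% of its UMIs from them (1% for fibroblasts and 0.5% for epithelium). It was gated when no other lineage came within 3-fold. Epithelial barcodes with at least 20% milk protein UMIs were called milk-secreting. In the adult library, 4463 barcodes held no lineage and 280 more than one; in the newborn, 2530 and 42. No doublet caller was run, and barcodes of mixed lineage were left out. Counts were summed per gate and scaled to 1000000 UMIs. Levels have exact Poisson intervals, ratios exact conditional binomial intervals and shares exact (Clopper-Pearson) intervals, all of 95%, from scipy 1.17.1. Ratios were taken for genes with at least 20 UMIs and a mean of 20 CPM, and 2-fold was the size counted. All 8 genes met this in every comparison. Intervals were tested only on simulated Poisson counts, the model they assume, so that check does not cover spread between barcodes or animals.

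All 8 genes were named in every gate, with LDHB beside LDHA. From the other lists the 2 largest ratios in each direction were named, except a few that are not reported here, and 5 genes were named by likeness over gates with a pseudocount of 1. Blood vascular newborn cells, under the 50 barcodes set for a gate, were named after their values were seen. The members and lists were chosen with earlier results of these data known. The comparison of T or NK lymphocytes between stages (42 newborn barcodes) and of dividing newborn fibroblasts (15) fell below 50 barcodes.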

Additional observations from a re-analysis of the deposited data

Results flagged for a closer look

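LDHA differed in direction between classes: it was higher in adult than in newborn fibroblasts (log2 ratio 1.17) and lower in adult than in newborn endothelial cells (-1.01) and mast cells (-2.15). The fibroblast value was 0.56 without the 10% of barcodes with the most UMIs, and 34 of its 136 adult UMIs came from 1 barcode. The log2 ratio in fibroblasts minus that in endothelial cells was 2.18, and minus that in mast cells 3.32. ENO1 was likewise higher in adult fibroblasts (0.62) and lower in adult mast cells (-1.48), a difference of 2.10, and ALDOA (0.31 and -1.23) gave a difference of 1.54. Relative to the median of all genes, ALDOA in fibroblasts was -0.21. With 1 library per stage these differences were not tested.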

How the results depend on the processing

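Over 5 comparisons, 51 alternatives to the median log2 ratio of the 8 genes were computed. Of these, 42 lay between the median lower and median upper interval limits of the 8 genes, and 9 lay outside. A reversal was counted only where the main median was at least 2-fold, as in mast cells and milk-secreting cells, and 0 were found. In fibroblasts, endothelial cells and dividing lymphocytes no reversal could be counted. In mast cells the median ranged from -1.61 to -1.36. In endothelial cells it was -0.49 without the 10% deepest barcodes and -0.45 with each barcode counted equally. In fibroblasts it was -0.57 with median-of-ratios scaling, and its range of -0.57 to 0.09 spans 0. In dividing lymphocytes it was 0.34 with that scaling and 0.43 with each barcode counted equally. In milk-secreting cells it was -1.01 without milk protein and mitochondrial UMIs, -0.91 with median-of-ratios scaling, -2.62 with each barcode counted equally and -2.96 with a milk protein share of 10%. ALDOA turned to 0.31 and 0.41, and PGAM1 to 0.038 and 0.14, under the first and second of these milk-secreting settings. Where a median moved for another reason than its denominator, the cause was not tested. Gates on CPA3, without shared barcodes and on lymphatic cells alone were chosen after seeing the data. Mast cells with 4 markers and dividing lymphocytes without the deepest barcodes fell below 50 barcodes and were not run. No paired analysis was possible because each stage has 1 library. Depth limits the newborn mast cell values most, with 12 LDHB and 35 PKM UMIs.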

Other observations

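Gates below 50 barcodes gave further values. In 33 newborn neutrophils the 8 genes summed to 16489 CPM (15563 to 17455), above all gates of 50 or more barcodes, with GAPDH at 8808 CPM (8135 to 9522), ALDOA at 2491 CPM and PKM at 1252 CPM; their median depth was 1497 UMIs, and fibroblast markers summed to 7514 CPM. In 272 adult macrophages or monocytes the sum was 3190 CPM (3109.6 to 3272), and in 17 newborn ones 2950 CPM (2694 to 3224); fibroblast markers summed to 90.3 CPM in the adult and 5078 CPM in the newborn gate. In 39 adult B cells it was 2543 CPM (2297 to 2808).

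With 2 markers enough to hold a lineage, 5986 adult and 56 newborn T or NK lymphocytes could be set side by side. LDHA had 214 CPM in adult and 369 CPM in newborn lymphocytes (ratio 0.579, 0.476 to 0.712), GAPDH 1087 against 1803 CPM (ratio 0.603, 0.552 to 0.660) and PKM 282 against 308 CPM (ratio 0.914, 0.738 to 1.14). Of the 8 ratios, those of PKM and PGAM1 had intervals that included 1. With 3 markers, fibroblast markers summed to 63.1 CPM in 4669 adult and 1027 CPM in 42 newborn T or NK lymphocytes; their part in these values was not tested.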
